A study of Mus musculus with 4 samples.

Results

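Proximal tubule cells of the mouse kidney were compared between day 0 (D0) and day 1 (D1) of intraperitoneal glyoxylate, a compound that the body turns into oxalate and that brings calcium oxalate crystals into the tubules. A barcode counted as a proximal tubule cell when it held at least 500 UMIs (unique molecular identifiers, each standing for 1 captured transcript), at most 50% of them from genes of the mitochondrial genome, at least 2 UMIs of Lrp2, Slc34a1 and Cubn together, and none of Ptprc, Slc12a1 or Slc12a3. These genes encode the endocytic receptors megalin and cubilin and the sodium phosphate cotransporter of the proximal tubule, the leukocyte antigen CD45, and the salt cotransporters of the thick ascending limb and the distal tubule. The rule kept 10936 of 16426 barcodes at D0 and 7004 of 12730 at D1, together 17940 of 29156. Within them, cells with at least 2 UMIs of Slc5a2 and Slc5a12, which encode the glucose and lactate cotransporters of the early tubule, formed the S1 gate (3113 cells at D0 and 1763 at D1). Cells with at least 3 UMIs of Slc7a13, an amino acid transporter gene of the last segment, formed the S3 gate (3246 and 1904 cells), and 240 and 105 cells lay in both gates.

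All mice were male C57BL/6, 6 to 8 weeks old, and received glyoxylate for 0, 1, 4 or 7 successive days; the labels do not say whether the D0 mice had any injection. Each day has 1 droplet library of dissociated whole kidney, and the number of mice behind a library is not given in the sources used here. No difference below therefore has a replicate check. Intervals are exact 95% intervals for counting error only, and a gene that differs between the libraries may differ between the mice, the days of collection or the treatments, which cannot be told apart. D4 and D7 held 14537 and 11981 cells under the same rule. Their levels are given beside those of D0 and D1, although their barcodes started at 2919 and 2773 UMIs where those of D0 and D1 started at 500.

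The proximal tubule reabsorbs most of the filtered glucose, amino acids, phosphate, bicarbonate and protein. It secretes organic anions and cations into the urine and releases glucose made from lactate and glutamine into the blood. Its early segments carry the high-capacity glucose and amino acid transporters, and its straight last segment carries much of the organic anion transport and of the glutathione-dependent detoxification. When injured, its cells switch on genes such as Havcr1 (kidney injury molecule 1) and Lcn2 (neutrophil gelatinase-associated lipocalin) that they hardly use in health. Signals of the JAK-STAT type, from growth hormone or from cytokines of the interleukin 6 family, end at STAT factors, whose own targets include the feedback inhibitors Cish and Socs2.

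The gated cells held a median of 5646 UMIs at D0 and 6979.5 at D1, and sums of 73967179 and 58626957 UMIs. All 12 proximal tubule markers outside the gate were detected in both libraries, with a summed level of 16740 CPM (UMIs per 1000000 of the library's gated sum) at D0 and 17080 at D1. Transcripts of other cells were present at low levels: 16 immune markers summed to 95.4 and 125 CPM with Ptprc at 0 by the rule, the lists of thick ascending limb, distal, intercalated, principal and urothelial markers to between 17.2 and 46.5 CPM, and the endothelial and podocyte lists to between 0.222 and 2.34 CPM. The 6 mesenchymal markers went from 0.352 to 9.48 CPM, with Pdgfrb, Col1a1 and Col3a1 at 0 at D0, and 93.4% of the 427 Dcn UMIs at D1 lay in 10 cells. In the segment gates they summed to at most 0.678 CPM at D1. The 4 haemoglobin genes rose from 10.2 to 211 CPM, and 94% of the Hbb-bs UMIs at D1 lay in 10 cells. The median share of mitochondrial UMIs per cell was 16.2% at D0 and 10.7% at D1, and ribosomal protein genes held 8.19 and 10.1% of all UMIs. D0 and D1 shared 64 barcodes. Just inside the gate, 679 and 701 cells had a marker sum of exactly 2, and just outside it 801 and 950 barcodes had a sum of exactly 1.

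Of 10070 genes with a mean of at least 2 CPM and at least 50 UMIs over D0 and D1, 135 (1.34%) were at least 1.5-fold higher at D1 in the ratio of CPM plus 1 and 71 (0.705%) at least 1.5-fold lower, 2.05% either way. "Rose" and "fell" below refer to this 1.5-fold call, whereas folds of single genes are ratios of CPM without the added 1. The median log2 ratio of all tested genes was 0.09, and 6528 of the 10070 were above 0. Counts of list members above 0 below are to be read beside this share. TMM factors, which assume that most genes do not differ, shifted every log2 ratio by -0.13, and the calls then split into 77 higher and 168 lower (79 and 144 in the S1 gate, 95 and 160 in the S3 gate). In all gated cells they split into 93 and 125 when the median gene was set to no change and 110 and 137 when mitochondrial genes were left out of the total. Of the genes given by name, 52 rose and 41 fell in all gated cells. The log2 ratios of 17 and 12 of them stayed past the 1.5-fold line under all 19 alternatives other than a 2-fold threshold. The 17 included Cish, Stat3, the 3 fibrinogen genes, Spp1, Cpn1, Irf1, Cxcl1, Irs2 and Gsta4, and the 12 included G6pc, Bcl6, Timp3, Cyp24a1, Nr1d1, Arrdc3, Angptl4 and Cyp4a12a. These counts look at the ratio alone. Genes such as Irf1, Cxcl1 and Fgb have too low a level to be tested under the alternative that asks for a mean of at least 10 CPM. In the segment gates 147 genes rose (1.44%) and 62 fell (0.609%) of 10187 in S1, 2.05% either way, and 163 rose (1.66%) and 71 fell (0.724%) of 9809 in S3, 2.39% either way.

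**Figure D1:**
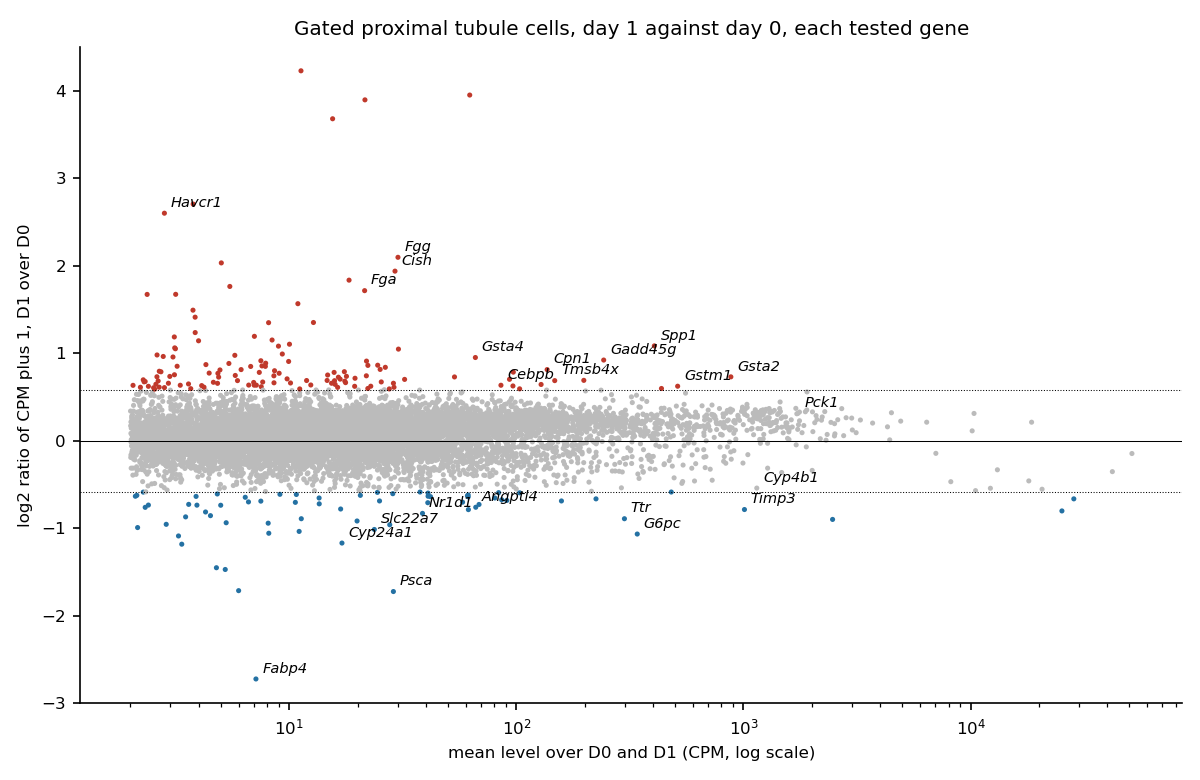
Each point is 1 of the 10070 tested genes in the summed gated cells, with its mean level over D0 and D1 (CPM, log scale) on the x axis and its log2 ratio of CPM plus 1, D1 over D0, on the y axis. Red points are the 135 genes at least 1.5-fold higher and blue points the 71 at least 1.5-fold lower (dotted lines). Unlabelled red points near 4 are haemoglobin genes, and blue points at the far right are genes of the mitochondrial genome.

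Feedback genes of STAT signalling were higher at D1. Cish, the cytokine-inducible SH2 protein that damps STAT5 signalling (chr9:107296026-107302784, plus strand, GENCODE M21 on mm10), stood at 11.5 CPM at D0, 46.9 at D1, 7.52 at D4 and 22.96 at D7. D1 was the highest library and D4 the lowest. The D1 level was 4.08-fold that of D0 (95% interval 3.78 to 4.41). Socs2, the other feedback inhibitor of growth hormone signalling, followed the same order at 24.3, 40.1, 8.62 and 30.6 CPM, 1.65-fold higher at D1 (1.55 to 1.76). With the TMM shift of -0.13 Socs2 lay just below the call. Bcl6, a transcriptional repressor, went the other way from D0 to D1. It had 14.98, 7.62, 19.5 and 30.4 CPM, 1.97-fold lower at D1 (ratio 0.509, 0.455 to 0.569). D1 was its lowest library and D7 its highest, so its order over the days is not the reverse of that of Cish and Socs2. Stat3 itself, the factor downstream of interleukin 6, rose from 12.2 to 20.8 CPM (1.71-fold, 1.57 to 1.87). Bcl6 belongs to no list used here and, like Stat3, was singled out after its values were seen. In the segment gates Cish rose from 8.81 to 44.1 CPM in S1 and from 14.4 to 54.2 in S3, Socs2 from 16.3 to 30.9 and from 29.5 to 52.9, and Bcl6 fell from 12.8 to 4.87 and from 17.99 to 10.4. Socs2 missed the call in S1 when cells were thinned (log2 ratio 0.487 against 0.885). In S3 its lowest log2 ratio under the alternatives was 0.669, still past the 1.5-fold line. Stat3 rose in S1 (15.5 to 31.1 CPM) and stood at 10.0 and 14.4 CPM in S3, below the call.

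The promoters of Cish, Bcl6, Fga and Fgb are shown because these genes rose or fell and were picked for windows that hold TTCNNNGAA, the palindrome that STAT factors bind. The motif is in capitals. Each sequence runs from 250 bases before to 20 bases after the RefSeq transcription start on GRCm38.p6, 5′ to 3′ on the gene's own strand. The windows are chr9:107296409-107296678 (plus strand) for Cish, chr16:23988833-23989102 (minus) for Bcl6, chr3:83025903-83026172 (plus) for Fga and chr3:83049844-83050113 (minus) for Fgb.
Cish: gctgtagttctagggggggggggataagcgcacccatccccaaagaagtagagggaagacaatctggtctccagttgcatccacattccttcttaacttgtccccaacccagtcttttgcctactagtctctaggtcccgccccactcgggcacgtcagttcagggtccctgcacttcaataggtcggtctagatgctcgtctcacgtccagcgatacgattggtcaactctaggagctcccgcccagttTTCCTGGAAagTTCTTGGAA
Bcl6: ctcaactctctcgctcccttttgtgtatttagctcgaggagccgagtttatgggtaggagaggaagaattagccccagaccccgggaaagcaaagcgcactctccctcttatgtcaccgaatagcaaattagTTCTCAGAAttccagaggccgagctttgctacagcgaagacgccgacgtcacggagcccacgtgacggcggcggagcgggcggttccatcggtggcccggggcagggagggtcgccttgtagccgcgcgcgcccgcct
Fga: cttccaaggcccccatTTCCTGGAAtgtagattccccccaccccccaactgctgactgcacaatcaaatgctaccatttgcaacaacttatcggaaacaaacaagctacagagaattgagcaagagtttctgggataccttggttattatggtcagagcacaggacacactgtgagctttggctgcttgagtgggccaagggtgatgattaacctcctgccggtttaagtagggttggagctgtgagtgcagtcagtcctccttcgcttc
Fgb: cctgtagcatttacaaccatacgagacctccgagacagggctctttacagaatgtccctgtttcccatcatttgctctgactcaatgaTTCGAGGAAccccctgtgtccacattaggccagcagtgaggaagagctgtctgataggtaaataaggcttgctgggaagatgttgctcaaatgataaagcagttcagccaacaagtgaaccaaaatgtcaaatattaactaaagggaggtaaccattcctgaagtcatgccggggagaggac
Cish holds the motif 2 times in the first bases of its transcript, starting at bases 1 and 12. Bcl6 holds it at 118, Fga at 234 and Fgb at 162 bases before the start. Over the full windows, which reach 50 bases past the start, the motif occurred in 6.73% of 9900 windows of tested genes, in 12.1% of the 132 windows of genes that rose and in 14.55% of the 55 of genes that fell. Both strands were searched, the search was added after Cish and Socs2 had been seen, and a match describes letters, not binding. The antioxidant response element core TGACNNNGC occurred in 14.7, 12.1 and 9.09% of the same 3 sets, the E-box CACGTG in 10.6, 9.85 and 3.64% and the AP-1 site TGANTCA in 4.75, 6.82 and 9.09%. The forkhead motif GTAAACA occurred in 2.60, 2.27 and 5.45%, the heat shock motif GAANNTTC in 5.89, 6.06 and 9.09%, the D-box TTATGTAA in 0.586, 0.758 and 3.64%, and the cAMP response element TGACGTCA in 3.26, 1.52 and 0%. The C/EBP motif TTGCGCAA occurred in 0.313% of all windows and in none of either called set. The set of genes that fell is small, and its D-box share rests on 2 windows.

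Of the list of acute phase and STAT3 genes, 7 of 15 tested members rose and 1 fell, with a median log2 ratio of 0.53. Besides Cish, Socs2 and Stat3 these were Cpn1, Bcl3, C3 and Nfkbia. Cpn1, a carboxypeptidase subunit that inactivates complement fragments and kinins, stood at 98.8 CPM at D0, 175 at D1, 197 at D4 and 327 at D7, 1.77-fold higher at D1 (1.71 to 1.82). It was the most abundant riser of this list. Bcl3, an NF-kappaB co-regulator, rose from 3.52 to 7.34 CPM, and C3, the central complement component, went from 4.18 to 8.10 CPM. C3 missed the call, at a log2 ratio of 0.49 against 0.81, when cells with 2 or more UMIs of other epithelial, endothelial, mesenchymal or urothelial markers were left out. Nfkbia, the NF-kappaB inhibitor, was close to the threshold (17.8 and 27.9 CPM) and missed it with each of the 3 other scalings. Serpina1d, an alpha-1 antitrypsin gene, was the member that fell, from 10.9 to 5.22 CPM, and missed the call among cells with 10 to 20% mitochondrial UMIs (log2 ratio -0.40 against -0.94).

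The tubule injury list had the highest median of all lists, with 13 of 24 tested members higher, none lower and a median log2 ratio of 0.63. Fibrinogen, the blood clotting protein that injured tubule cells also make, rose in all 3 of its chain genes, which lie side by side on chromosome 3. Fgg stood at 10.8 CPM at D0, 49.5 at D1, 46.9 at D4 and 88.7 at D7 (4.58-fold at D1, 4.24 to 4.96). Fga stood at 9.49, 33.5, 19.7 and 35.6 CPM (3.53-fold, 3.23 to 3.85), and Fgb, the lowest of the 3, at 1.89, 5.82, 5.83 and 8.34 CPM (3.07-fold, 2.52 to 3.77). D0 was the lowest library for each chain. The 10 cells with most Fgg UMIs held 6.39% of them at D0 and 18.5% at D1. Spp1, the secreted phosphoprotein osteopontin, was higher in each later library, with 259, 551, 1115 and 2109 CPM, and rose 2.13-fold at D1 (2.09 to 2.16).

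Havcr1 had 6 UMIs at D0 and 326 at D1, or 0.0811 and 5.56 CPM, 68.6-fold higher (31.2 to 188), and reached 15.6 and 20.9 CPM at D4 and D7. At D1 97 of the 7004 cells held a Havcr1 UMI, and 10 of them held 44.2% of its UMIs. Lcn2, an iron-scavenging secreted protein, went from 0.608 to 4.13 CPM, but 97.8 and 78.5% of its UMIs lay in 10 cells, and without cells carrying 2 or more UMIs of other classes its log2 ratio was 0.55 against 1.67. Vim, the intermediate filament of mesenchymal and dedifferentiated cells, rose from 1.51 to 4.73 CPM beside the rise of the mesenchymal markers, and its log2 ratio was 1.09 against 1.19 without cells carrying 2 or more UMIs of other classes. Wfdc2 rose from 17.1 to 32.0 CPM. Krt19, a keratin of collecting duct and urothelium, went from 11.3 to 20.2 CPM, but its log2 ratio turned to -0.66 among cells with 5000 to 10000 UMIs, where that of Wfdc2 was 0.01. The list's other risers were Cd24a, Anxa2, Lgals3 and Tnfrsf12a, each under 20 CPM in both libraries. Members that did not pass included Krt8 (85.5 and 94.2 CPM), Clu (10.3 and 15.9 CPM) and Sox4 (4.42 and 6.04 CPM). Without the Havcr1-bearing cells 119 of the 135 genes that rose in all gated cells, and 70 of the 71 that fell, were still called the same way. Tnfrsf12a was not (log2 ratio 0.37 against 0.65), and Fgb kept its call at 0.64 against 1.24.

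**Figure D2:**
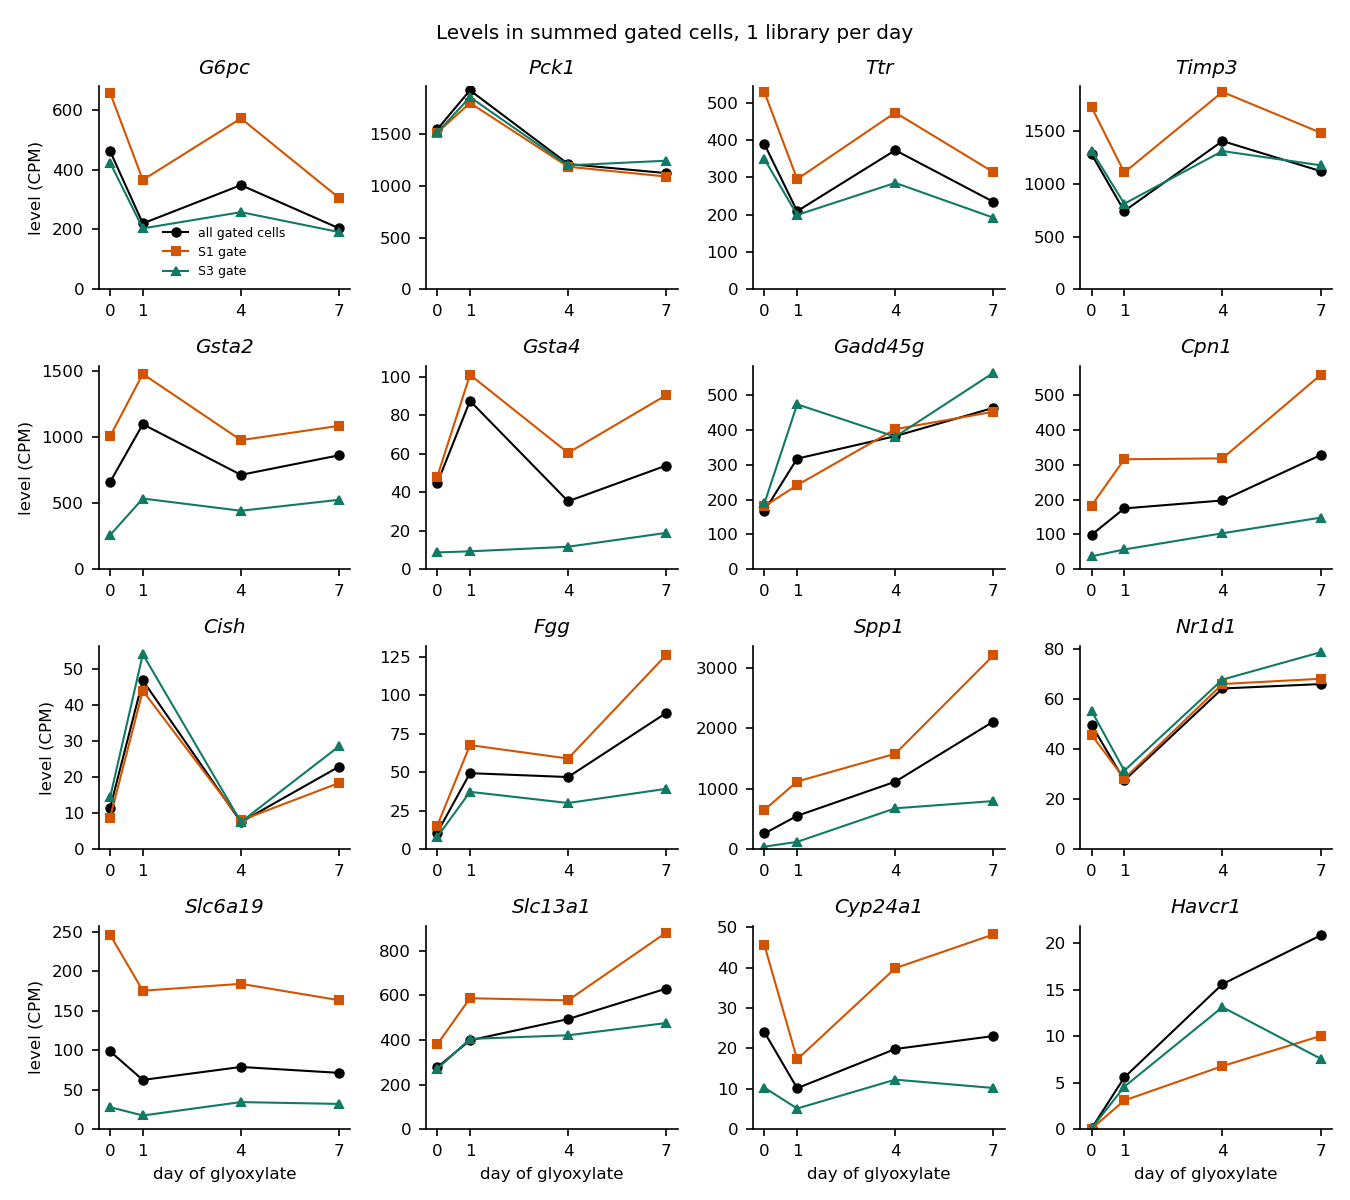
Levels (CPM, y axis from 0) of 16 genes on days 0, 1, 4 and 7 of glyoxylate (x axis), 1 library a day, in all gated cells (black circles), the S1 gate (orange squares) and the S3 gate (green triangles). Cish is highest at D1 (46.9 CPM) and lowest at D4 (7.52), G6pc is lower at D1 (220.1) than at D0 (461) and returns in part at D4 (348), whereas Spp1 is highest at D7 (2109).

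Chemokine genes that rose had low levels. In the chemokine and growth factor list 2 of 15 members rose and 1 fell, with a median of 0.05 that turned to -0.08 with TMM factors and to -0.05 without mitochondrial genes. Cxcl1, a neutrophil attractant, rose from 1.37 to 8.68 CPM (6.36-fold, 5.13 to 7.95) and went on to 15.2 at D4 and 29.4 at D7. Ccl5, a chemokine that lymphocytes also make, rose from 5.39 to 12.5 CPM. Among interferon-stimulated and MHC class I genes 2 of 22 rose, none fell, and the median was 0.27. Irf1, a transcription factor induced by interferon, rose from 1.65 to 6.06 CPM (3.67-fold, 2.98 to 4.55) and stood at 2.66 and 4.14 CPM at D4 and D7. Ifitm3, an antiviral membrane protein, rose from 3.88 to 10.2 CPM, with 40.1 and 36.7% of its UMIs in 10 cells. Lyz2, itself an immune marker, went from 6.76 to 18.8 CPM, and its ratio was 0 by construction once cells with an immune UMI were left out. Those cells numbered 1997 at D0 and 2522 at D1. Without them, 100 of the 135 risers and 64 of the 71 that fell were called the same way, among them Cish, Fgg, Irf1, Ifitm3, Cxcl1 and Ccl5.

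Glucose release held 1 call. G6pc, the catalytic subunit of glucose-6-phosphatase that frees glucose at the end of gluconeogenesis (chr11:101367561-101377903, plus strand), stood at 461 CPM at D0, 220.1 at D1, 348 at D4 and 204 at D7. The ratio of D1 to D0 was 0.477 (0.467 to 0.487), or 2.10-fold lower, and D1 and D7 were the low libraries. No other of the 16 members passed the call in all gated cells. Slc37a4, which carries glucose-6-phosphate to the same enzyme, had 116.6 and 85.5 CPM, and Slc2a2, the basolateral glucose exit transporter, 89.0 and 67.5 CPM. The gluconeogenic enzymes upstream stood on the other side of the all-gene median: Pck1 had 1548 CPM at D0 and 1925 at D1 (ratio 1.24, 1.23 to 1.25) and Fbp1 1053 and 1253 CPM. The list median was 0.05 and turned to -0.08 with TMM factors, -0.04 with the median gene at no change and -0.05 without mitochondrial genes. Among the 18 genes of ammonia and glutamine handling 1 rose, the glutamine transporter gene Slc38a3 (5.16 to 8.78 CPM), and the median was 0.13, or -0.00 with TMM factors.

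Insulin, fasting and glucocorticoid genes did not move as 1 block. Of 27 tested members 3 rose and 2 fell, with a median of -0.09. Irs2, the insulin receptor substrate, had 17.9 CPM at D0, 32.3 at D1, 13.1 at D4 and 16.2 at D7, and D1 alone stood high (1.80-fold, 1.68 to 1.94). Cebpb, a transcription factor of the acute phase response, rose from 66.8 to 104 CPM, and to 112 and 155 CPM later, but missed the call within cells of 10 to 20% mitochondrial UMIs (log2 ratio 0.40) and with each of the 3 other scalings. Arrdc3, an arrestin-like regulator of insulin action, fell from 78.1 to 44.9 CPM and stood at 87.8 and 63.4 later. Angptl4, a lipoprotein lipase inhibitor induced by fasting, fell from 83.6 to 49.0 CPM and stood at 122 CPM at D4. The glucocorticoid targets Fkbp5 (22.3 and 23.5 CPM) and Tsc22d3 (43.0 and 39.9 CPM) were between the thresholds.

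Of 17 circadian clock genes 1 fell and none rose, with a median of -0.24. Nr1d1, the clock repressor REV-ERB alpha, had 49.7 CPM at D0, 27.6 at D1, 64.4 at D4 and 66.1 at D7 (1.80-fold lower at D1, ratio 0.554, 0.523 to 0.588). D1 was the low library. Dbp, a clock output factor, had 13.7 and 10.3 CPM, and Arntl, the clock activator BMAL1, 7.71 and 9.48 CPM. The hour at which kidneys were taken is not given in the sources used here, so the day of treatment and the hour of collection cannot be told apart.

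Immediate-early genes, the fast responders of the AP-1 and EGR families, were split at D1 in all gated cells. Among 24 tested members 2 rose and 2 fell, with a median of -0.06. Fosb had 74.2 CPM at D0, 47.7 at D1, 208 at D4 and 170 at D7, and Egr1 34.7, 22.5, 56.3 and 50.2 CPM, so both were lowest at D1. Ier3 rose from 6.02 to 11.2 CPM and Ier5 from 17.5 to 26.9 CPM. Without the Havcr1-bearing cells their log2 ratios were 0.57 and 0.57, just below the call. Jun stood at 508 and 434 CPM and Fos at 184 and 165 CPM, between the thresholds. In the S1 gate 4 of 24 fell (Fosb, Egr1, Ier2 and Dusp1), Ier3 rose, 2 were above 0 and the median was -0.23. In the S3 gate Egr1 fell, Ier3 rose, 14 were above 0 and the median was 0.06. Of all tested genes 6486 of 10187 were above 0 in S1 and 6448 of 9809 in S3, with medians of 0.08 and 0.09. Both medians of the immediate-early list thus lay below those of all tested genes.

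In the p53 and growth arrest list 2 of 17 members rose, with a median of 0.05 that was -0.08 with TMM factors, -0.04 with the median gene at no change and -0.04 without mitochondrial genes. Gadd45g, a small stress protein that slows the cell cycle, had 167 CPM at D0, 318 at D1, 382 at D4 and 464 at D7 (1.90-fold at D1, 1.86 to 1.95). Its log2 ratio was 0.92 in all gated cells and 0.51, below the call, among cells with 5000 to 10000 UMIs. Cdkn1a, the cyclin-dependent kinase inhibitor p21, rose from 5.31 to 10.4 CPM, with 24.4 and 24.5% of its UMIs in 10 cells, and its log2 ratio was 0.16 within cells of 10 to 20% mitochondrial UMIs. None of the 11 tested cell cycle genes passed the call, and their median was 0.26.

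Several glutathione transferases, which couple electrophiles to glutathione, were highest at D1. Of 18 tested members 3 rose, none fell, 16 had a log2 ratio above 0, and the median was 0.28. Gsta2 (chr9:78331018-78355788, minus strand) had 662 CPM at D0, 1099 at D1, 716 at D4 and 864 at D7 (1.66-fold at D1, 1.64 to 1.68), and D1 was its highest library. Gsta4, which handles the lipid peroxidation product 4-hydroxynonenal, had 44.7, 87.4, 35.3 and 53.8 CPM (1.96-fold, 1.87 to 2.04), with 37.5 and 36.2% of its D0 and D1 UMIs in 10 cells. Gstm1 had 404, 623, 403 and 437 CPM. Its log2 ratio of 0.62 came to 0.50 with TMM factors and 0.47 within cells of 10 to 20% mitochondrial UMIs, both below the call. Gsta3 (189 and 283 CPM) and Gstp1 (20.8 and 31.7 CPM) were just below it. Members of the alpha and mu classes are close paralogs, and how 3′ reads shared between them were counted is not given in the sources used here.

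The NRF2 target list, which holds glutathione synthesis and quinone reduction genes, had no member past the call among 25 tested, but 22 were above 0 and the median was 0.24. Gclc, the catalytic subunit of glutathione synthesis, had 109 CPM at D0, 163 at D1, 95.7 at D4 and 159 at D7, a log2 ratio of 0.58 that lay at the edge of the 1.5-fold line. Its partner Gclm had 472 and 606 CPM, the quinone reductase Nqo1 28.3 and 39.0 CPM, and haem oxygenase Hmox1 41.2 and 53.5 CPM. Within cells of 10 to 20% mitochondrial UMIs, where the median of all tested genes was 0.02, the transferase median was 0.18 and the NRF2 median 0.13.

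The actin, tubulin and thymosin list gave 5 risers of 27 (Tmsb10, Tubb2a, Tmsb4x, Tpm4 and Tubb5), none that fell, and a median of 0.34, or 0.21 with TMM factors. Of these risers only Tmsb10 and Tubb2a stayed past the 1.5-fold line under all 19 alternatives other than a 2-fold threshold. The lowest log2 ratios of Tmsb4x, Tpm4 and Tubb5 were 0.513, 0.496 and 0.503, below the call. Tubb2a, a beta-tubulin, had 15.5 CPM at D0, 28.9 at D1, 25.4 at D4 and 40.2 at D7 (1.87-fold, 1.73 to 2.02). The actin-binding thymosin Tmsb10 rose from 6.61 to 13.3 CPM, while Tmsb4x, abundant in leukocytes, rose from 113 to 182 CPM with 33.1 and 31.7% of its UMIs in 10 cells. Of the small heat shock genes, Hspb1 rose from 11.7 to 19.0 CPM and Cryab from 21.8 to 33.4, each with at least 31.8% of UMIs in 10 cells. Among cells with 5000 to 10000 UMIs their log2 ratios were 0.11 and -0.03, so neither rise held there. The list of 19 heat shock chaperones had no other call and a median of 0.16.

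Fat metabolism changed in single genes. Of 41 fatty acid oxidation and PPAR genes 2 rose and 2 fell, with a median of 0.19. Acot1, a cytosolic thioesterase, rose from 100.1 to 157 CPM, but with TMM factors its log2 ratio was 0.52, below the call. Cyp4a12a, a male-biased fatty acid hydroxylase, fell from 36.9 to 18.5 CPM (ratio 0.501, 0.467 to 0.538). Cpt1a, which brings fatty acids into mitochondria, was between the thresholds (50.1 and 44.1 CPM). Of 29 cholesterol and fat synthesis genes 1 fell, the stearoyl-CoA desaturase Scd1, with 8.15 CPM at D0, 2.30 at D1, 16.8 at D4 and 14.7 at D7 (3.54-fold lower at D1). Within cells of 10 to 20% mitochondrial UMIs its log2 ratio was -0.52 against -1.47. G0s2, an inhibitor of triglyceride lipase, fell from 275 to 173 CPM.

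Among the more abundant genes that fell were Timp3 and Ttr. Timp3, a matrix metalloproteinase inhibitor, had 1279 CPM at D0, 742 at D1, 1405 at D4 and 1120 at D7 (ratio 0.580, 0.573 to 0.587), and D1 was the low library. Ttr, the thyroxine and retinol carrier transthyretin, had 389, 209.5, 373 and 235 CPM (ratio 0.539, 0.527 to 0.550). Cyp24a1, the enzyme that inactivates vitamin D, had 24.0, 10.1, 19.8 and 23.1 CPM (2.37-fold lower, ratio 0.422, 0.384 to 0.463). Of the 22 tested genes of endocytosis and vitamin handling, Ttr and Cyp24a1 fell and Aldh1a1, a retinal dehydrogenase, rose from 1.77 to 4.38 CPM. The median was -0.10. Its close relative Aldh1a7 rose from 4.14 to 12.1 CPM. In the matrix and protease inhibitor list Timp3 and Mep1b, a brush border metalloprotease with 26.3 and 13.5 CPM, were the 2 of 23 members that fell, Spp1 rose, and the median was -0.19. Within cells of 10 to 20% mitochondrial UMIs Ttr had a log2 ratio of -0.55 and Mep1b of -0.49, below the call.

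Transporter genes leaned lower as a set, with few calls. In the list of organic anion and cation transporters 4 of 29 fell, none rose, 2 were above 0, and the median was -0.26. Slc22a7, an organic anion transporter of the last segment, had 32.0 CPM at D0, 15.4 at D1, 13.1 at D4 and 14.2 at D7 (2.09-fold lower, ratio 0.480, 0.444 to 0.518). Slc22a19 (7.25 to 3.31 CPM), Slco1a6 (125 to 82.2 CPM) and the vesicular amine transporter Slc18a1 (74.5 to 48.2 CPM) were the other calls. The para-aminohippurate transporter Slc22a6 had 594 and 490.3 CPM, between the thresholds. Among 28 transporters of glucose, phosphate, sulfate and acid-base 4 fell (Slc5a8, Slc2a5, Slc26a1 and Car12), none rose, and the median was -0.26. Slc5a8, a lactate cotransporter, had 106 and 66.2 CPM, and Slc26a1, the basolateral sulfate and oxalate exchanger, 101 and 66.4 CPM. The apical sulfate cotransporter Slc13a1 stood apart with 278 CPM at D0, 399 at D1, 494 at D4 and 631 at D7. Of 19 amino acid transporters Slc6a19 (98.6 to 62.3 CPM), the neutral amino acid transporter of the brush border, and Slc7a8 (45.4 to 29.9 CPM) fell, Slc38a3 rose, and the median was -0.21. With TMM factors the medians of these lists, in the order given, were -0.39, -0.39 and -0.34, beside -0.04 for all tested genes. Without mitochondrial genes in the total they were -0.35, -0.35 and -0.30, beside 0.001.

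The 13 genes of the mitochondrial genome were all below 0, from -0.26 for mt-Nd6 to -0.90 for mt-Nd3, with a median of -0.47 and 3 calls. The level of mt-Co3 was 32090 CPM at D0, 18420 at D1, 33540 at D4 and 36200 at D7, and D1 was the low library. Nuclear genes of the same respiratory chain did not go with them: 37 of 38 were above 0 and the median was 0.15. Of 78 cytosolic ribosomal protein genes none passed the call, all 78 were above 0, and the median was 0.31, from 0.13 for Rps29 to 0.44 for Rpl10. All 27 proteasome genes were above 0 (median 0.25), as were 25 of 26 genes of ribosome biogenesis and translation (median 0.29). TMM factors brought the ribosomal median to 0.18, the proteasome median to 0.12 and the median of nuclear respiratory chain genes to 0.02.

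These broad shifts moved with the mitochondrial share of the cells. When only cells with 10 to 20% mitochondrial UMIs were compared, an alternative added after the data were seen, the median of organic ion transporters was -0.03, that of glucose, phosphate and sulfate transporters -0.08 and that of amino acid transporters -0.01, beside 0.02 for all tested genes. Slc22a7 then had a log2 ratio of -0.49, Slc6a19 -0.37 and Slc5a8 -0.37, all below the call. The medians of ribosomal protein genes, ribosome biogenesis and the proteasome were 0.13, 0.14 and 0.04. In the same cells Cish had 1.88, Fgg 2.26, Spp1 1.61, G6pc -1.02, Nr1d1 -0.97, Cyp24a1 -1.44 and Timp3 -0.63, and the injury list a median of 1.09. Of the calls in all gated cells, 86 of 135 rises and 26 of 71 falls remained. What part the mitochondrial share has in the transporter levels was not tested.

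**Figure D3:**
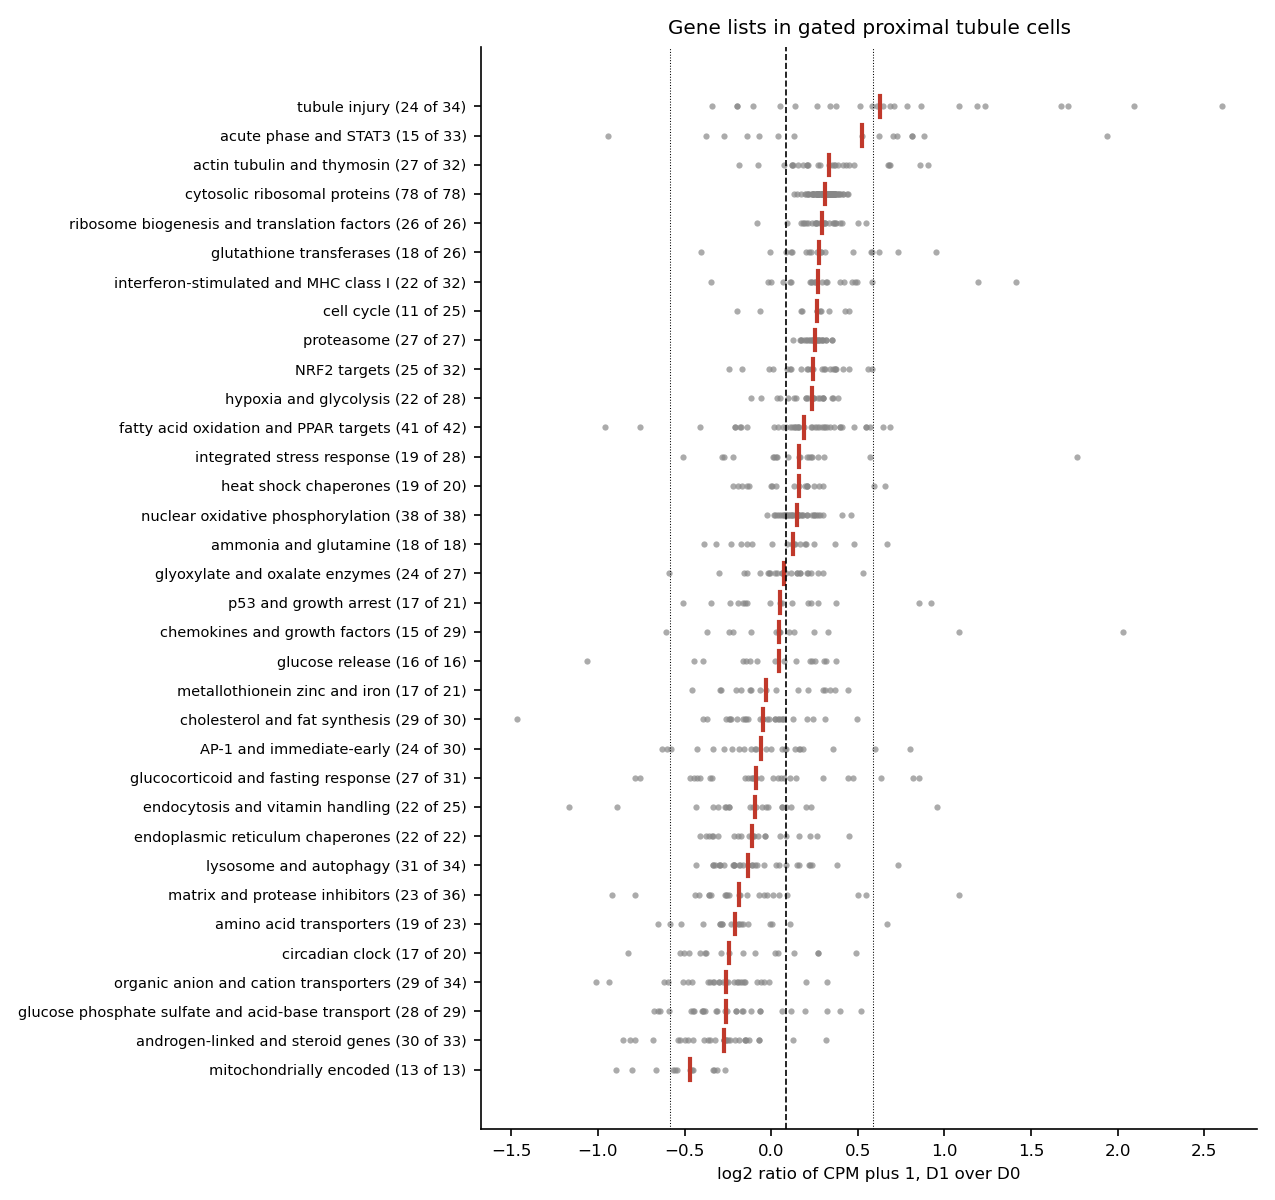
Each grey point is 1 tested member of a gene list (rows, with tested and listed members in parentheses) at its log2 ratio of CPM plus 1, D1 over D0, in all gated cells, and each red bar is the list's median. The dashed line is the median of all tested genes (0.09) and dotted lines mark 1.5-fold. The injury (0.63) and acute phase (0.53) lists lie at the top and genes of the mitochondrial genome (-0.47) at the bottom.

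Genes that androgens keep high in the male mouse kidney leaned lower. Of 30 androgen-linked and steroid genes 4 fell, none rose, 2 were above 0, and the median was -0.27, or -0.40 with TMM factors. The falls were Timp3, Hsd17b11, a steroid and lipid droplet dehydrogenase (112 to 69.6 CPM), Prlr, the prolactin receptor (6.08 to 2.92 CPM), and Cyp7b1 (5.73 to 2.83 CPM, with 35.4 and 73.5% of its UMIs in 10 cells). Kap, the androgen-regulated protein that is the most abundant of the list, had 47230 CPM at D0 and 37000 at D1 (ratio 0.783). Within cells of 10 to 20% mitochondrial UMIs the median was -0.17 and Hsd17b11 was below the call (-0.43).

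Genes of glyoxylate and oxalate metabolism held few calls. Of 24 tested members in all gated cells the transporter Slc26a1 fell, none rose, and the median was 0.07, or -0.05 with TMM factors, -0.01 with the median gene at no change and -0.02 without mitochondrial genes. Grhpr, the glyoxylate reductase, had 452 CPM at D0 and 479 at D1 (ratio 1.06, 1.04 to 1.08). Hoga1, which splits hydroxy-oxoglutarate into glyoxylate and pyruvate, had 134 and 148 CPM, and the peroxisomal hydroxyacid oxidase Hao2 215 and 310.1 CPM. In the S3 gate Hao2 rose from 204 to 316 CPM (log2 ratio 0.63), the list's 1 call there, but not with the 3 other scalings (0.51 to 0.54) or within cells of 10 to 20% mitochondrial UMIs (0.51). The apical oxalate exchanger Slc26a6 was low, at 3.001 and 2.83 CPM. Lists of the integrated stress response (1 of 19 rose, median 0.16), endoplasmic reticulum chaperones (0 of 22, -0.11), metallothioneins, zinc and iron (0 of 17, -0.03), hypoxia and glycolysis (0 of 22, 0.24) and lysosome and autophagy (1 of 31 rose, -0.14) held few calls. The stress response gene that rose was Nupr1 (1.95 to 9.01 CPM, with 81.9 and 79.7% of its UMIs in 10 cells), and the lysosomal list's was Npl, a sialic acid lyase (39.9 to 66.9 CPM).

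The segment gates shared part of their calls. Of 9626 genes tested in both gates, 49 rose in both, or 40.8% of the 120 that rose in S1 and 34.5% of the 142 that rose in S3. The 21 that fell in both were 38.9% of the 54 that fell in S1 and 38.2% of the 55 in S3. Of all genes tested in S1 and in S3, 1.44 and 1.66% rose and 0.609 and 0.724% fell. Both gates draw on the same library for each day and some cells lie in both, so the gates are not independent of each other. In both gates G6pc fell (656 to 365.5 CPM in S1 and 423 to 204 CPM in S3), as did Ttr, Timp3, Cyp24a1, Arrdc3 and Nr1d1. Fgg rose from 15.3 to 67.7 CPM in S1 and from 7.99 to 37.3 CPM in S3, where 49.0% of its D1 UMIs lay in 10 cells. Nmrk1, a nicotinamide riboside kinase, rose from 80.6 to 145 CPM in S1 and from 80.1 to 138 CPM in S3.

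Several detoxification and stress genes had higher ratios in the S3 gate than in the S1 gate. Gsta2, Cbr1 and Gadd45g were picked for a large difference between the gates. That their counting intervals did not overlap is therefore no check on it. Gsta2 had 259 CPM at D0 and 536 at D1 in S3 (2.07-fold, 2.01 to 2.13), and 1008 and 1480 CPM in S1 (1.47-fold, 1.442 to 1.495), where it did not pass the call. The carbonyl reductase gene Cbr1 had 27.6 and 52.4 CPM in S3 (1.90-fold, 1.75 to 2.07) against 57.5 and 71.2 CPM in S1 (1.24-fold, 1.14 to 1.34). Cbr3 rose in S3 from 0.299 to 3.76 CPM, Gclc from 149 to 232 CPM and Gsta3 from 186 to 305 CPM. The log2 ratios of Gclc were close in the gates (0.64 in S3 and 0.54 in S1), while those of Gsta3 were 0.71 and 0.41. In S3 3 of 26 NRF2 targets and 3 of 16 transferases rose, beside 1.66% of all tested genes. In S1 0 of 26 and 1 of 17 rose, beside 1.44% of all tested genes. Gsta4 rose in S1 (48.1 to 101 CPM) and had 8.74 and 9.30 CPM in S3. Its S3 log2 ratio of 0.08 turned sign under 7 of 22 alternatives. Without the 8% of cells with most UMIs it was 1.05 in S3, so the segment difference of Gsta4 depends on the cells kept. Gclc missed the call in S3 with each of the 3 other scalings and Gsta3 when cells were thinned (log2 ratio 0.54 against 0.71). Gadd45g also rose in S3, from 190 to 474 CPM (2.50-fold, 2.42 to 2.58), and had 181 and 242 CPM in S1 (1.34-fold, 1.28 to 1.40). With 1 library a day the differences between segments were not tested, and these intervals cover counting error only.

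Spp1 was the most abundant injury gene of the S1 gate, at 649 CPM at D0 and 1118 at D1, and rose from 42.0 to 121 CPM in S3, where 44.9% of its D1 UMIs lay in 10 cells. S100g, the calcium-binding protein calbindin-D9k, rose in S1 (48.2 to 99.3 CPM, with 34.1% of D1 UMIs in 10 cells) and had 27.9 and 25.3 CPM in S3. Slc13a1 passed the call in S1 (381 to 588 CPM) but not with the other 3 scalings. Some genes with their higher level in the S1 gate fell in the S3 gate while their S1 ratios stayed between the thresholds: Apob had 11.1 and 4.28 CPM in S3 against 62.7 and 62.1 in S1, Car3 26.8 and 11.8 against 372 and 289, Slc34a3 6.11 and 2.55 against 103 and 83.6, and Apoe 22.9 and 13.6 against 321 and 304. In S3 10 cells held 18.7 to 27.7% of their UMIs at D0 and 30.3 to 49.0% at D1. Slc34a3 missed the call under stricter segment gates of 4 and 6 UMIs (-0.483 against -1.003). Apoe missed the call when cells of both gates were left out (log2 ratio -0.35 against -0.71), as it did under 8 other alternatives. Scd1 fell in S3 from 15.4 to 4.45 CPM, Slc22a7 from 61.5 to 31.5 CPM and Prlr from 7.01 to 2.43 CPM. Among S3 cells with 10 to 20% mitochondrial UMIs Scd1 (log2 ratio -0.52 against -1.59) and Slc22a7 (-0.47 against -0.94) missed the call.

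**Figure D4:**
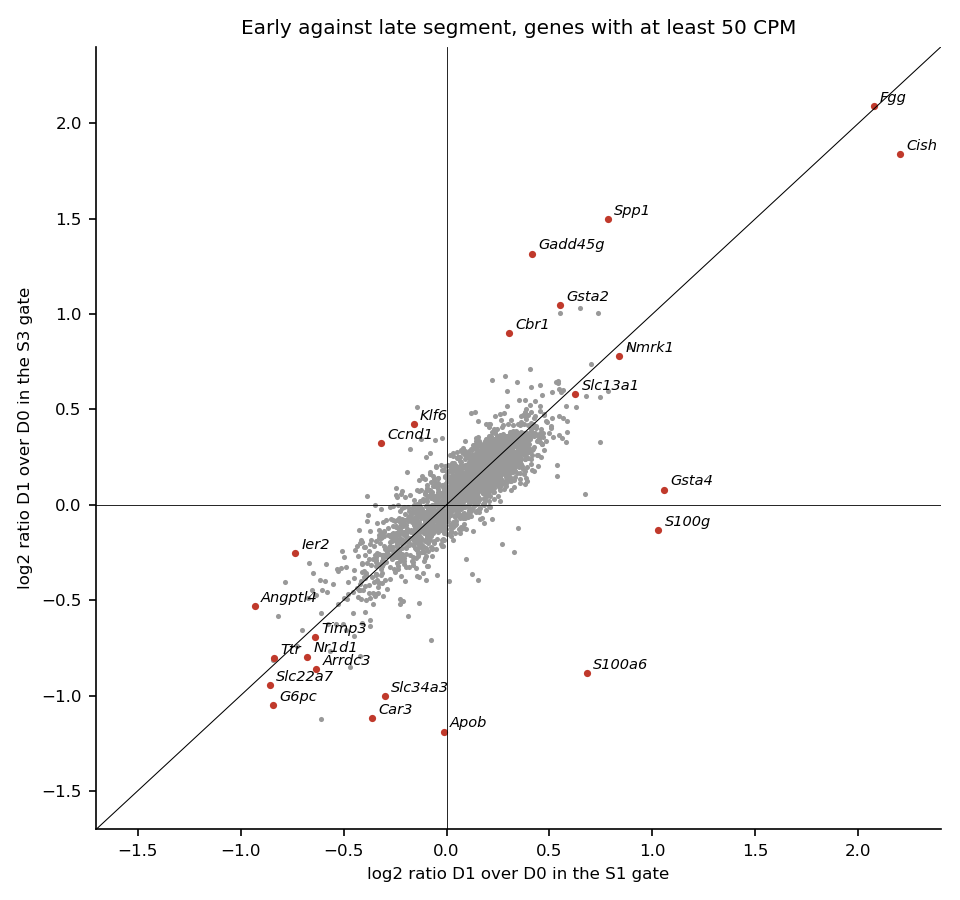
Each point is a gene with at least 50 CPM in some library of either gate, placed by its log2 ratio of CPM plus 1, D1 over D0, in the S1 gate (x axis) and in the S3 gate (y axis). The diagonal marks equal ratios, and red points are named. Cish and Fgg lie near the upper end of the diagonal, G6pc, Ttr and Timp3 in the lower left, Gadd45g (0.42 and 1.32) above the diagonal and Gsta4 (1.06 and 0.08) below it.

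To set cells of unequal depth side by side, cells were thinned to 1000 UMIs each, which left out 444 shallower cells at D0 and 383 at D1 and kept 10492 and 6621. G6pc had a UMI in 31.7% of cells at D0 (exact 95% binomial interval 30.9 to 32.6) and 17.7% at D1 (16.8 to 18.7), against 66.9 and 53.4% before thinning. Cells with Ptprc and no proximal tubule marker, which should lack the gene, had 1.99 and 0.867%, at median depths of 2071 and 3091 UMIs. Timp3 had a UMI in 57.3 and 42.5% of gated cells and Gsta2 in 40.8 and 54.1%, against 7.97 and 2.77% and 8.31 and 6.76% of Ptprc cells. Cish and Fgg were seen in few cells at this depth: Cish in 1.24% (1.04 to 1.47) and 4.80% (4.30 to 5.35), and Fgg in 1.11 and 3.67%. Unthinned, Cish was seen in 6.90 and 27.8% of gated cells. Among Ptprc cells Cish was seen in 0.997 and 0.693%, and Fgg in 0 of 301 cells at D0 (3 counts would be 0.997%) and in 0.173% at D1. The Cish share at D0 was therefore not told apart from that of Ptprc cells at this depth. Havcr1 was seen in 0.438% of thinned cells at D1 and in 0.347% of Ptprc cells (0.042 to 1.25), so its share is not above this background. In the S3 gate the share with Spp1 at D1 (6.63%) was below that of Ptprc cells (8.15%) and is not read as expression, whereas in the S1 gate it was 37.1% at D0 and 46.9% at D1.

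**Figure D5:**
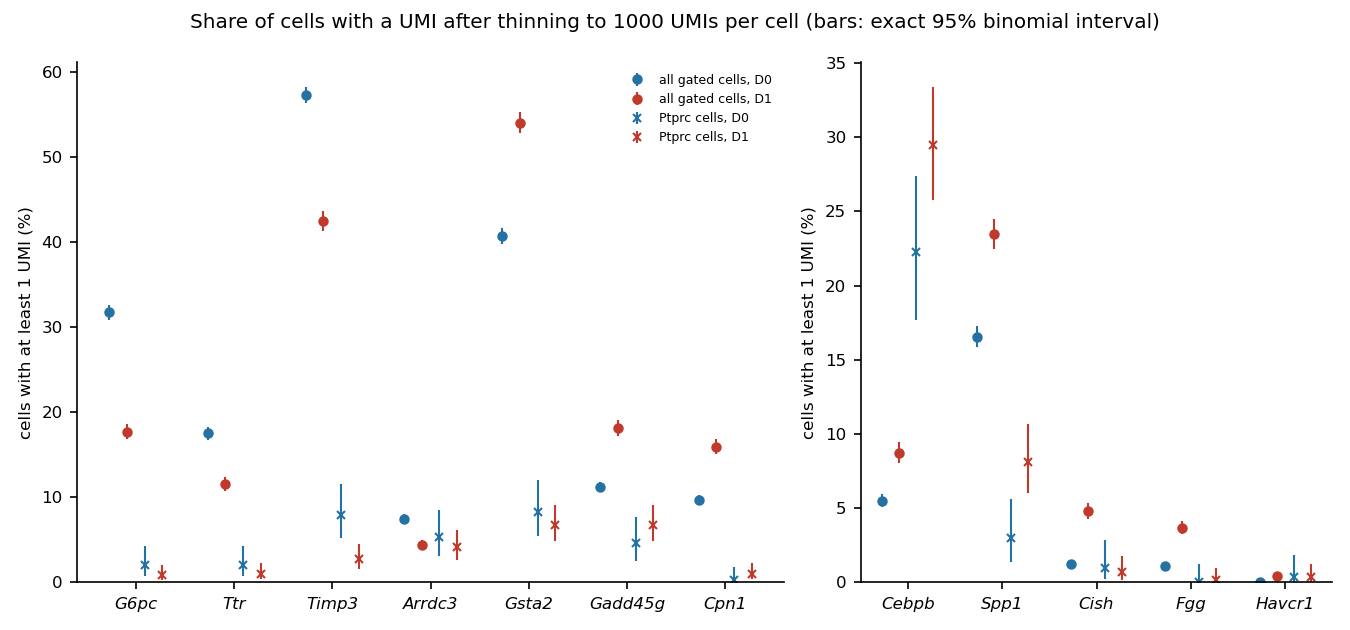
Share of cells with at least 1 UMI (percent, y axes from 0 and of different range) for 12 genes after thinning each cell to 1000 UMIs, with exact 95% binomial intervals, for gated cells (circles) and for Ptprc cells without proximal tubule markers (crosses) at D0 (blue) and D1 (red). G6pc goes from 31.7 to 17.7% and Gsta2 from 40.8 to 54.1% of gated cells, while Cish stays under 5% of thinned cells and lies above the Ptprc cells at D1.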

How the data were processed

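Single-cell RNA was captured with a 10x 3′ v2 protocol, per the labels' protocols, from kidneys digested with trypsin and DNase I, and processed with Cell Ranger 3.1.0 on mm10, per the submitters' processing notes (the deposited matrix headers name software 3.0.1). The annotation release is not given in the sources used here. The authors deposited raw UMI counts of 27998 genes for each of the 4 libraries.

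UMIs were summed over the gated cells of each library and expressed as CPM, with the gate genes left out of the comparison. With 1 library a group no test across samples was possible, so D1 and D0 were compared by the ratio of CPM with an exact 95% interval for the ratio of 2 Poisson counts, which covers counting error only. Calls used the ratio of CPM plus 1. Python 3.11.15, numpy 2.4.6 and scipy 1.17.1 were used, with matplotlib 3.10.9 for figures and edgeR 4.0.16 in R 4.3.3 for TMM factors as a scaling only. The code was tested on simulated data. No doublet caller was run. An alternative leaves out the 8% of cells with most UMIs.

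The gate, the 34 gene lists and the genes were chosen with earlier results of these data known. Named genes were the 15 highest and 15 lowest ratios at 50 CPM or more, the 8 highest and 8 lowest at 10 to 50 CPM, the 10 highest and 10 lowest in each segment gate, the 8 with the largest difference between segments each way, up to 4 per list, and Havcr1, Lcn2 and Spp1. Mitochondrial and ribosomal protein genes (outside their own lists), haemoglobin genes and unnamed gene models were left out. Genes outside this rule, among them Bcl6, Stat3, Fgb, C3, Nfkbia, Cbr3, Pck1, Fbp1, Slc13a1, Grhpr, Hoga1, Slc26a6, Slc22a6, Kap, Jun, Fos, Dbp, Arntl, Fkbp5, Tsc22d3, Gclm, Cpt1a, Tubb5 and the injury genes Krt8, Krt19, Vim, Clu, Sox4, Wfdc2, Cd24a, Anxa2, Lgals3 and Tnfrsf12a, were named after their values were seen. The planned search for genes with a pattern like G6pc or Gsta2 is not reported, since 4 libraries are fewer than the 6 needed for a correlation. Promoter windows are from RefSeq (GRCm38.p6) and were matched by symbol for 7752 of the 10070 tested genes. For Bcl6, with 2 windows, the one whose first transcribed bases lie in an annotated transcript is printed. Some genes are not reported here.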

Additional observations from a re-analysis of the deposited data

Results flagged for a closer look

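Among the genes examined singly, 4 had ratios of D1 to D0 of opposite sign in the segment gates and either opposite calls or log2 ratios at least 1 apart. Others of opposite sign, such as Ccnd1 (-0.32 in S1 and 0.33 in S3), Klf6 (-0.16 and 0.42) and Cyp2a5 (-0.14 and 0.51), lay closer together. None of these differences was tested, since each gate has 1 library a day. The log2 ratio of S100g was 1.03 in the S1 gate and -0.13 in the S3 gate, with 34.1% of its S1 UMIs at D1 in 10 cells. Its S3 sign turned under 5 of 22 alternatives, up to 0.27 among cells with 5000 to 10000 UMIs. Klk1, a kallikrein of the distal nephron, had 0.94 in S1 and -1.17 in S3, with 83% of its S1 UMIs at D1 in 10 cells. S100a6 had 0.68 and -0.88, with 82.7% of its S1 UMIs at D1 in 1 cell. Upk3a, a urothelial plaque protein, had 0.65 and -0.94, with all of its S1 UMIs at D1 in 10 cells. The S1 direction of Klk1, S100a6 and Upk3a turned under several alternatives. Klk1 and Upk3a were singled out after their values were seen.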

How the results depend on the processing

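No paired analysis was possible because the groups share fewer than 2 replicate numbers, and no library could be left out because each group has 1. The counts of calls are given here as higher and lower, for all gated cells, then S1, then S3. Thinning to 1000 UMIs gave 245 and 115, 257 and 143, 278 and 153. TMM factors gave 77 and 168, 79 and 144, 95 and 160. A pseudocount of 5 CPM gave 59 and 35, 42 and 28, 66 and 34. A mean of at least 10 CPM gave 60 and 43, 50 and 34, 76 and 36. A 2-fold call gave 30 and 12, 23 and 7, 38 and 15. With the median gene at no change 125 genes were lower in all gated cells, and the segments gave 88 and 121, 104 and 121. Without mitochondrial genes in the total 137, 152 and 127 were lower. Without a filter beyond 1 UMI S1 gave 221 and 101, and 251 were higher in S3. In S1 116 were lower at up to 25% mitochondrial UMIs, 177 at 10 to 20% and 95 with a pseudocount of 0.5 CPM. In S3 111 were lower at 10 to 20% and 139 among cells with 5000 to 10000 UMIs. The other 82 of 128 counts stayed within 1.5 times. The 10 to 20% and 5000 to 10000 UMI ranges and the filter on UMIs of other classes were added after the data were seen. The cause was not tested.

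Directions turned for few genes, mostly with their UMIs in few cells. In S1, Klk1 turned to -1.15 at up to 25% mitochondrial UMIs, -0.82 at 10 to 20%, -1.29 at 5000 to 10000 UMIs and -0.83 without cells with other-class UMIs. S100a6 in S1 turned to -1.86 without cells with an immune UMI, -1.97 with stricter segment gates, -0.23 at 10 to 20%, -0.19 at 5000 to 10000 UMIs and -0.22 without other-class cells. Upk3a in S1 turned to -0.77 without the 8% deepest cells, -2.38 without immune UMIs, -0.53 thinned, -1.97 with stricter gates, -0.23 at 10 to 20%, -0.91 at 5000 to 10000 UMIs and -0.58 without other-class cells. In S3, S100a6 turned to 1.33 without the deepest cells, 0.47 at 5000 to 10000 UMIs and 0.29 without other-class cells, and Upk3a to 0.41 without the deepest cells. In all gated cells Cryab turned to -0.029, Fabp4 to 0.04 and Krt19 to -0.66 at 5000 to 10000 UMIs, and Psca to 0.11 without the deepest cells.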
